A study of Mus musculus with 6 samples.

Results

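Chemokine receptor mRNA was examined in primary mouse macrophages grown from bone marrow (BMDM). The genes were Ccr1, Ccr2, Ccr7, Cx3cr1, Cxcr2 and Cxcr4, a set of 6 chosen by symbol, and all 6 stood among the 14005 genes listed by the authors. PolyA-selected RNA was sequenced in 3 libraries of wild-type C57BL/6J cells and 3 libraries labelled Txn1 KO. The Txn1 KO cells carried the Txn1 allele Txn1tm1.1Ees/J together with B6.129P2-Lyz2tm1(cre)lfo/J, a Cre recombinase knocked into the lysozyme gene Lyz2, which myeloid cells express, and the labels place them on the same C57BL/6J background. Both groups are given as pooled male and female bone marrow macrophages, and no treatment is named. Whether the 3 libraries of a group came from separate animals or cultures is not stated, so p-values measure only the spread between these libraries, which may be technical. No library carrying Cre without the Txn1 allele was analysed here, so the Cre insertion and the Txn1 allele cannot be told apart.

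Chemokine receptors are cell-surface receptors coupled to inhibitory G proteins, and they steer leukocytes along gradients of secreted chemokines. CCR2 draws monocytes out of the marrow into inflamed tissue, CX3CR1 marks patrolling monocytes and many resident macrophages, and CCR1 answers inflammatory CC chemokines. CXCR2 is the main chemotactic receptor of neutrophils, CXCR4 retains cells in the marrow through CXCL12, and CCR7 leads mature dendritic cells to lymph nodes. After ligand binding, G protein-coupled receptor kinases and arrestins switch the receptors off, and RGS proteins shorten the G protein signal.

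The 6 genes encode one receptor fold but differ in sequence, which bears on whether reads can be assigned to each of them. All 6 coding sequences hold the DRY codons, for the aspartate, arginine and tyrosine with which such receptors engage the G protein. The stretch around these codons, from the GENCODE M21 transcript with the longest complete coding sequence of each gene, is shown 5′ to 3′ with the DRY codons in capitals:
Ccr1: acgattGACAGATACctggccattgtc
Ccr2: acaattGATAGGTACttggctattgtt
Ccr7: agcattGACCGCTACgtagccatcgtc
Cx3cr1: agcatcGACCGGTACcttgccatcgtc
Cxcr2: agcatgGACCGCTACctggccattgta
Cxcr4: agcctgGACCGGTACctcgctattgtc
Although the encoded motif was the same, the codons differed between members. Over the 15 pairs of members, identity of the aligned coding sequences ran from 48.3% to 58.7%, and the longest identical run between any 2 members was 16 bases. Any coding stretch longer than that run differs between members. This does not hold for receptors outside the 6, as Ccr1 and Ccr3 had an identity of 67.3% and an identical run of 47 bases.

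The recovered reads summed to 22508616 to 38726953 per library. Wild-type replicate 1 and Txn1 KO library 3 stood apart from the other 4, with the liver transcript Alb at 643 and 580.0 normalized counts against at most 0.838. Lyz2 followed the labels, with 361315, 363625 and 368284 normalized counts in wild type against 4327, 3251 and 1775 in those labelled Txn1 KO. Txn1 had 13176, 12155 and 12409 against 12695, 11963 and 12389, so its whole-gene level did not separate the groups (limma adjusted p = 0.686). The values are sums over whole genes and the deleted part is not named, so this does not test the deletion. All 12 chosen macrophage markers were among the listed genes, with Csf1r at 49624 or more and Adgre1 at 16392 or more normalized counts in every library. Cd163 was low, at 32.3 to 71.3. All 6 chosen NK cell markers, 5 of 8 T cell markers and 7 of 8 B cell markers were not among the listed genes.

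Of the 6 receptors, Cxcr2, Ccr7 and Cxcr4 rose in the libraries labelled Txn1 KO, Ccr2 fell, and Ccr1 and Cx3cr1 did not pass the test. Calls were made at a Benjamini-Hochberg adjusted p under 0.05 with limma on log2(normalized count + 1), for 13977 genes whose mean reached 10. Thus 3 of 6 members rose, where 11.5% of all tested genes did, and 1 of 6 fell, where 9.97% did. In either direction 4 of 6 were called, against 21.5% of all tested genes. The same 4 members had no overlap between groups, as did 36.2% of all tested genes. The median log2 change of the 6 was 0.29, against -0.0049 over all tested genes. Without the 2 libraries that held liver transcripts, Cxcr4 (0.41), Cxcr2 (1.97) and Ccr7 (0.51) still rose on the log2 scale, the last with a limma adjusted p of 0.0464. The 12 macrophage markers summed to 206563 to 215733 normalized counts in wild type against 179217 to 182605 in those labelled Txn1 KO. Of them 7 fell, led by the complement genes C1qa (-0.76) and C1qb (-0.74), and 3 rose, counting both gene identifiers of Itgam, while Csf1r (0.05) and Adgre1 (-0.07) did not pass. The third riser was Mertk (0.64), a receptor for apoptotic cells. In bulk RNA, fewer cells of a type and less RNA per cell cannot be told apart.

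**Figure D1:**
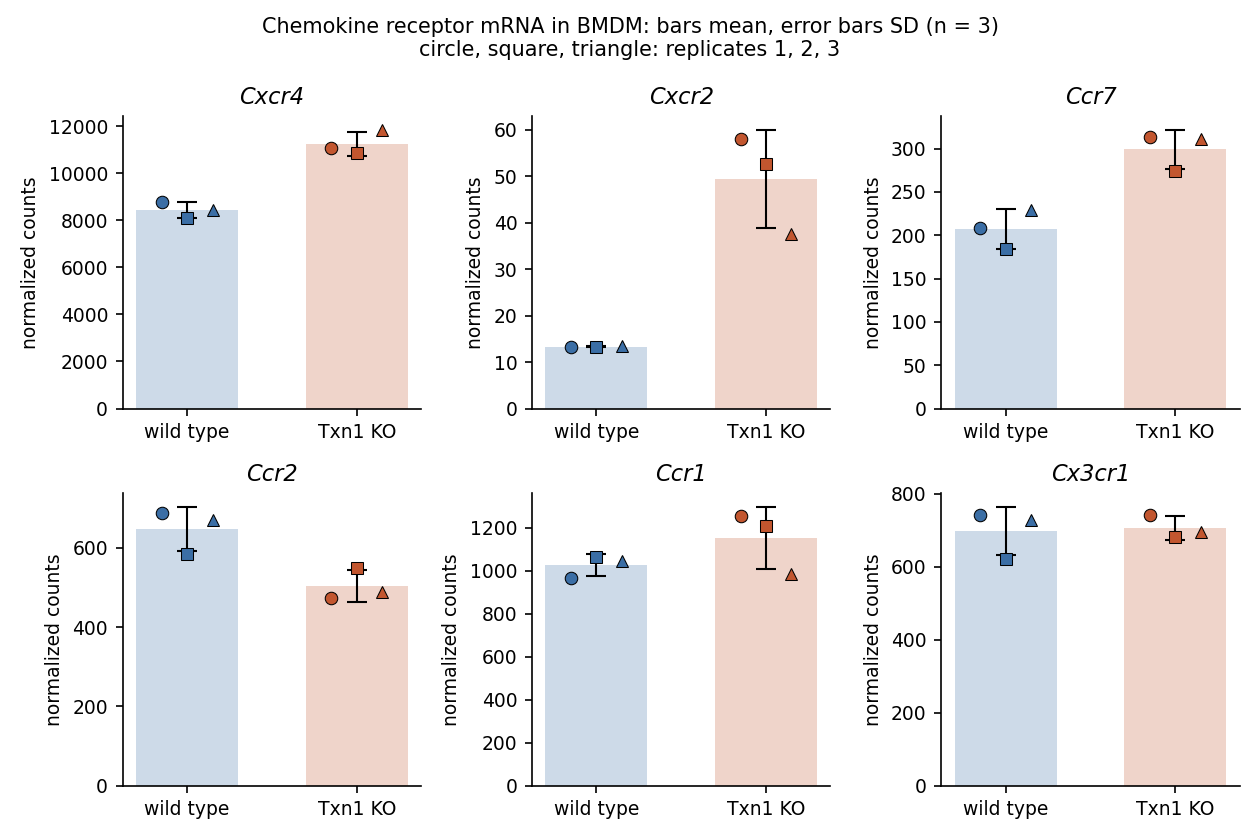
Normalized counts of the 6 receptors (y axis of each panel, starting at 0), for wild type and Txn1 KO. Bars are means and error bars SD over 3 libraries, and each point is 1 library. Cxcr4, Cxcr2 and Ccr7 lie higher and Ccr2 lower in every Txn1 KO library than in every wild-type library, while the points of Ccr1 and Cx3cr1 overlap.

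Cxcr4, the receptor of CXCL12 (ENSMUSG00000045382, chromosome 1, 128588199 to 128592293, minus strand, GRCm38), had the highest level of the 6, also per kilobase of exon. It had 8762, 8109 and 8432 normalized counts in wild type against 11056, 10859 and 11822 in those labelled Txn1 KO. Every Txn1 KO library lay above every wild-type library. The means were 8434 ± 326 and 11245 ± 509 (SD, n = 3 each), a 1.33-fold rise and a log2 change of 0.41 (SE 0.039, adjusted p = 5.67e-07 by limma). As a share of wild type, the 95% interval was 126% to 141%. At least 8599 reads lay behind each value, so counting error was small.

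Markers of cell types beyond those of the macrophage list also moved with the groups. The 3 listed megakaryocyte markers summed to 334 to 377 normalized counts in wild type against 635.3 to 746 in those labelled Txn1 KO, and Pf4 (0.96) and Itga2b (1.10) rose while none fell. Gp9 was not among the listed genes. The 6 listed of 8 osteoclast markers summed to 18323 to 18441 against 20579 to 22778. Of them 5 rose, among them the cathepsin gene Ctsk (0.57), and Mmp9 fell (-1.94). The largest rise was that of Ocstamp (2.16), from a low mean of 12.9 to one of 61.4 normalized counts. Beside the counts of both lists, 11.5% of all tested genes rose and 9.97% fell. Most of the osteoclast sum was Atp6v0d2, with means of 15239 and 17325 normalized counts. Calcr and Oscar were not among the listed genes. The part of such cells in the Cxcr4 result was not tested.

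Cxcr2, the receptor of neutrophil-attracting CXC chemokines (ENSMUSG00000026180, chromosome 1, 74153989 to 74161246, plus strand), had the largest fold change of the 6 and the lowest level, also per kilobase of exon. Its values were 13.2, 13.2 and 13.4 normalized counts in wild type against 58.0, 52.6 and 37.7 in those labelled Txn1 KO. All Txn1 KO libraries were above all wild-type libraries, and Txn1 KO library 3, the shallowest, was the lowest of its group. The means, 13.3 ± 0.109 and 49.4 ± 10.5 (SD, n = 3 each), differed 3.72-fold, with a log2 change of 1.80 (SE 0.29, adjusted p = 0.000242 by limma). In the order of log2 changes Cxcr2 stood at place 53 of 13977.

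These values rested on few reads, 13, 17 and 16 in wild type against 50, 55 and 28 in those labelled Txn1 KO. The summed 46 reads had an exact Poisson 95% interval of 33.7 to 61.4, and the summed 133 reads one of 111 to 158, which cover counting error only. The spread of the wild-type values (SD 0.109) was below the 3.42 normalized counts that counting alone would give at this depth. Of the 50-base stretches in Cxcr2 transcripts, 6.68% also occurred in transcripts of other genes, so part of its reads may not be assignable.

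Beside this rise, the 8 listed of 12 chosen neutrophil markers summed to 3258 to 3419 normalized counts in wild type against 3901 to 4115 in those labelled Txn1 KO. Most of that sum was Csf3r (the G-CSF receptor), with means of 2636 and 2871, followed by Mmp8 (a collagenase), with 390 and 816. Of the 8 markers Mmp8 and Csf3r rose, by 1.06 and 0.12 on the log2 scale, while S100a9 and Ngp fell (both -0.83). Among all tested genes 11.5% rose and 9.97% fell. The defining markers Ly6g, Elane, Camp and Retnlg were not among the listed genes. The part of neutrophil RNA in the Cxcr2 result was not tested.

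The promoters of the 2 members on chromosome 1, both higher in the libraries labelled Txn1 KO, are shown from the RefSeq table (GRCm38.p6), each from 250 bases before to 50 after the gene start. Sequences were matched for 5 of the 6 members, the exception being Ccr7. Capitals mark a match on either strand to any of 3 letter patterns. They are TGACNNNGC for the antioxidant response element, GGG and CC with any 5 bases between them for NF-kB, and GAAA repeated after any 2 bases for the interferon response.
Cxcr2, chr1:74153744-74154043, plus strand: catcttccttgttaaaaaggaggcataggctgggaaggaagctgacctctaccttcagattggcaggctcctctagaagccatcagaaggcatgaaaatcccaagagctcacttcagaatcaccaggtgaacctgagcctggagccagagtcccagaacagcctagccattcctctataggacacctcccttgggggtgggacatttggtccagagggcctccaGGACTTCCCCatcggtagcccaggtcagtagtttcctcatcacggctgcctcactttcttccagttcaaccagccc
Cxcr4, chr1:128592250-128592549, minus strand: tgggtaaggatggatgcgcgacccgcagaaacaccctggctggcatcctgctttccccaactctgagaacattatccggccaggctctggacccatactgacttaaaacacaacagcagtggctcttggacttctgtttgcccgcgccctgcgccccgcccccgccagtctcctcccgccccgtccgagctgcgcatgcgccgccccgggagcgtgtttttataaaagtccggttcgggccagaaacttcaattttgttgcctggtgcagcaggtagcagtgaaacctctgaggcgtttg
The Cxcr2 window held 1 match, to the NF-kB letters, which 50.8% of all 32851 promoter windows of this length also hold. Ccr1 and Cx3cr1, which did not pass the test, each held 1 match to these letters as well, and Ccr2 held none. The Cxcr4 window held none of the 3 patterns. None of the 5 matched members held TGACNNNGC, found in 12.4% of all windows, or the interferon letters, found in 3.44%. These are matches of letters only.

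Next to Cxcr2 on the chromosome, its nearest listed neighbour Rufy4, an effector of small GTPases in autophagy, also rose. Rufy4 ends 5.77 kb before Cxcr2 begins, and its start lies 28.4 kb away. It had 14.3, 11.7 and 7.55 normalized counts in wild type against 44.1, 52.6 and 29.6 in those labelled Txn1 KO, a log2 change of 1.83 (SE 0.35, adjusted p = 0.00100 by limma). As for Cxcr2, the groups did not overlap and Txn1 KO library 3 was the lowest of its group. Tns1, the focal adhesion gene before Rufy4, rose from 5403 ± 125 to 6705 ± 199 normalized counts (log2 0.31). Within 500 kb of Cxcr2, 4 of 16 tested genes rose, counting Cxcr2 itself, 2 fell and 10 were not called, with a median log2 change of 0.0045. Over all tested genes 11.5% rose and 9.97% fell, and the count of risers includes Cxcr2, which prompted the look-up. The fourth riser was Slc11a1, a phagosomal metal transporter gene (0.70), and those that fell were Ctdsp1 (-0.24) and Pnkd (-0.21). These neighbours were looked up after the receptors' values had been seen.

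**Figure D2:**
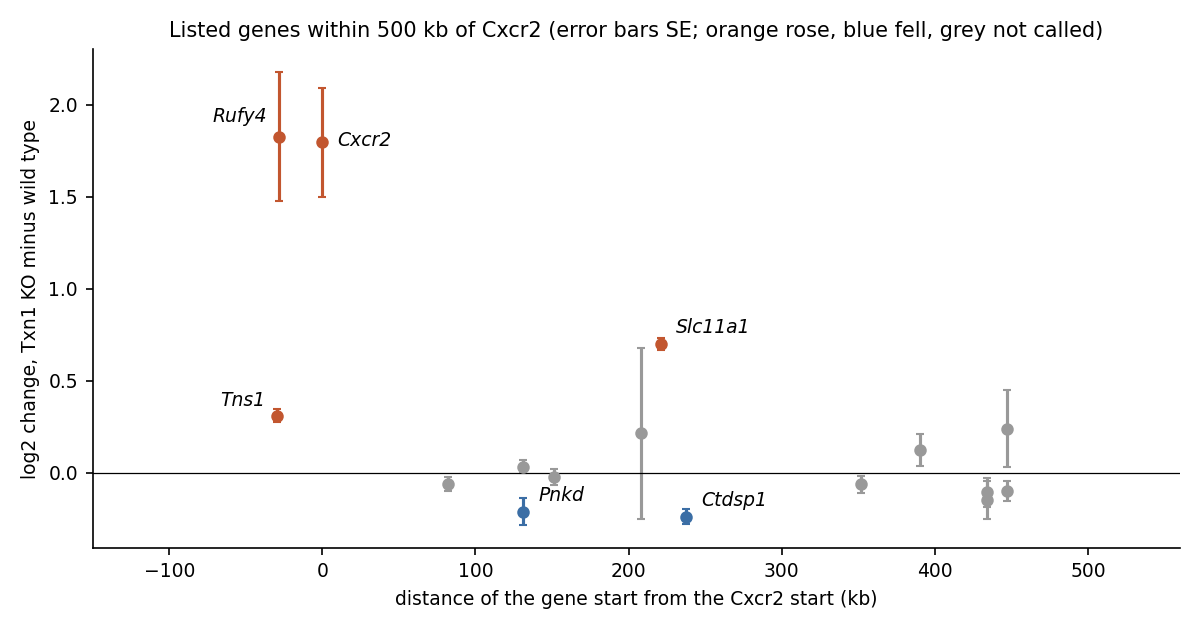
Log2 change (y axis, error bars SE) of the 16 tested genes within 500 kb of Cxcr2 against the distance of each gene's start from the Cxcr2 start in kb (x axis). Rufy4 at 1.83 and Cxcr2 at 1.80 stand above the rest, followed by Slc11a1 at 0.70 and Tns1 at 0.31.

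Ccr7, the receptor for lymph node homing (ENSMUSG00000037944, chromosome 11, 99144196 to 99155077, minus strand), rose as well. It had 208, 184 and 229.7 normalized counts in wild type against 313, 274 and 311 in those labelled Txn1 KO. The groups did not overlap, with the highest wild-type value below the lowest Txn1 KO value. Means were 207 ± 22.8 and 299 ± 22.1 (SD, n = 3 each), 1.44-fold apart, and the log2 change was 0.53 ± 0.11 (SE; limma adjusted p = 0.00146).

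The 10 listed of 12 chosen dendritic cell markers summed to 4069 to 4405 normalized counts in wild type against 6039 to 6803 in those labelled Txn1 KO. Most of that sum was Itgax, which encodes the integrin chain CD11c and which macrophages express too. It rose by 0.66 on the log2 scale, as did the transcription factor gene Batf3 (0.66) and the actin-bundling gene Fscn1 (0.53). No marker of the list was called lower, where 11.5% of all tested genes rose and 9.97% fell. The median log2 change of the list was 0.02. Siglech (-0.67), Xcr1 (-0.39), Zbtb46 (-0.29), Itgae (-0.28) and Ccl22 (-0.26) were below 0 and did not pass. Flt3 (0.88) and Dpp4 (0.29) did not pass either. The defining genes Zbtb46, Flt3 and Xcr1 stayed at or below 20.1 normalized counts in every library, and Clec9a and Cd209a were not among the listed genes. The part of dendritic cell RNA in the Ccr7 result was not tested.

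Ccr2, the receptor of CCL2 (ENSMUSG00000049103, chromosome 9, 124101950 to 124113557, plus strand), was the member that fell. Its values were 687, 585 and 669.9 normalized counts in wild type against 473, 548 and 489 in those labelled Txn1 KO. The groups did not overlap, although wild-type replicate 2 and Txn1 KO library 2 were close. The mean went from 647 ± 54.5 to 503 ± 39.8 (SD, n = 3 each), 0.777 of wild type, with a log2 change of -0.36 (SE 0.079, adjusted p = 0.00277 by limma). The call was lost without the 2 libraries that held liver transcripts (-0.30, limma adjusted p = 0.0800) and without a trended prior (limma adjusted p = 0.0636).

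Of the 50-base stretches in Ccr2 transcripts, 1.91% also occurred in transcripts of other genes. The 11 listed monocyte markers summed to 3077 to 3341 normalized counts in wild type against 2686 to 2846 in those labelled Txn1 KO. Of these 3 rose and 2 fell, where 11.5% of all tested genes rose and 9.97% fell. The fibronectin gene Fn1 (-0.62) and Ms4a4c (-0.67) were those that fell, and Treml4 (2.71), Spn (0.46) and Nr4a1 (0.30), markers of non-classical monocytes, rose. Treml4 was low, with 9.17, 5.44 and 5.87 normalized counts in wild type against 52.2, 47.8 and 47.1 in those labelled Txn1 KO. Its wild-type mean of 6.83 rested on few reads and alone lay below the filter, so the size of its change is uncertain. Ly6c2, which marks classical monocytes, had a log2 difference of 0.45 and did not pass. Nor did Plac8 (-0.60), F13a1 (-0.58), Chil3 (-0.03), Vcan (0.05) and Ace (0.52), the remaining markers of the list. The part of monocyte RNA in the Ccr2 result was not tested.

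Ccr1, a receptor of CCL3, CCL6 and CCL9 (ENSMUSG00000025804, chromosome 9, 123962124 to 123968692, minus strand), did not pass. It had 968, 1064 and 1046 normalized counts in wild type against 1258, 1210.4 and 988 in those labelled Txn1 KO. Txn1 KO libraries 1 and 2 were above every wild-type library, and library 3 lay within the wild-type range. The log2 difference was 0.16 ± 0.075 (SE; limma adjusted p = 0.149) and its 95% interval was 100.1% to 125% as a share of wild type. Without Txn1 KO library 3 it was 0.27 and passed (limma adjusted p = 0.00216), and it passed at 0.23 without both libraries with liver transcripts (limma adjusted p = 0.0183).

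Cx3cr1, the fractalkine receptor (ENSMUSG00000052336, chromosome 9, 119901616 to 120069879, minus strand), had nearly equal means. Its values were 742, 622 and 729 normalized counts in wild type against 743, 681 and 694 in those labelled Txn1 KO, with overlapping groups. The log2 difference was 0.02 ± 0.072 (SE; limma adjusted p = 0.882), with a 95% interval of 91.3% to 113% as a share of wild type. These bounds are not adjusted for the number of genes tested and do not show that the levels were equal. The smallest difference that could be detected was not tested. In the annotation 78 exonic bases of Cx3cr1 overlap Gm33858 on the other strand, whose reads cannot be told apart without strand. Ttc21a, a ciliary gene inside the annotated Cx3cr1 span, rose by 1.13 on the log2 scale from a mean of 20.6 to one of 45.5 (adjusted p = 0.00673 by limma) and was looked up after its value was seen.

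Levels were compared between the 6 genes as normalized counts per kilobase of merged exon. In wild type the order was Cxcr4 (4665 ± 181 per kb), Ccr1 (362 ± 18.0), Cx3cr1 (155 ± 14.5), Ccr7 (105 ± 11.5), Ccr2 (95.8 ± 8.06) and Cxcr2 (4.36 ± 0.0359; SD, n = 3 each). Cxcr4 was 12.9 times the next and made up 86.6% of the summed level of the 6. Ccr7 and Ccr2, neighbours in this order, overlapped between libraries, and the other neighbours did not. In the libraries labelled Txn1 KO the order was the same, but Ccr7 (151 ± 11.2 per kb) now overlapped Cx3cr1 (157 ± 7.23) and was 2.03 times Ccr2 (74.4 ± 5.88). The merged exons held 6760 bases for Ccr2, from 4 annotated transcripts, and 1978 bases for Ccr7, from 1. Before division by length, mean normalized counts of Ccr2 were higher, at 647 and 503 against 207 and 299. Which Ccr2 transcripts were expressed was not tested, so the order of Ccr7 and Ccr2 depends on the length used. Cxcr2 remained last at 16.2 ± 3.45 per kb, and Cxcr4 took 88.5% of the sum.

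**Figure D3:**
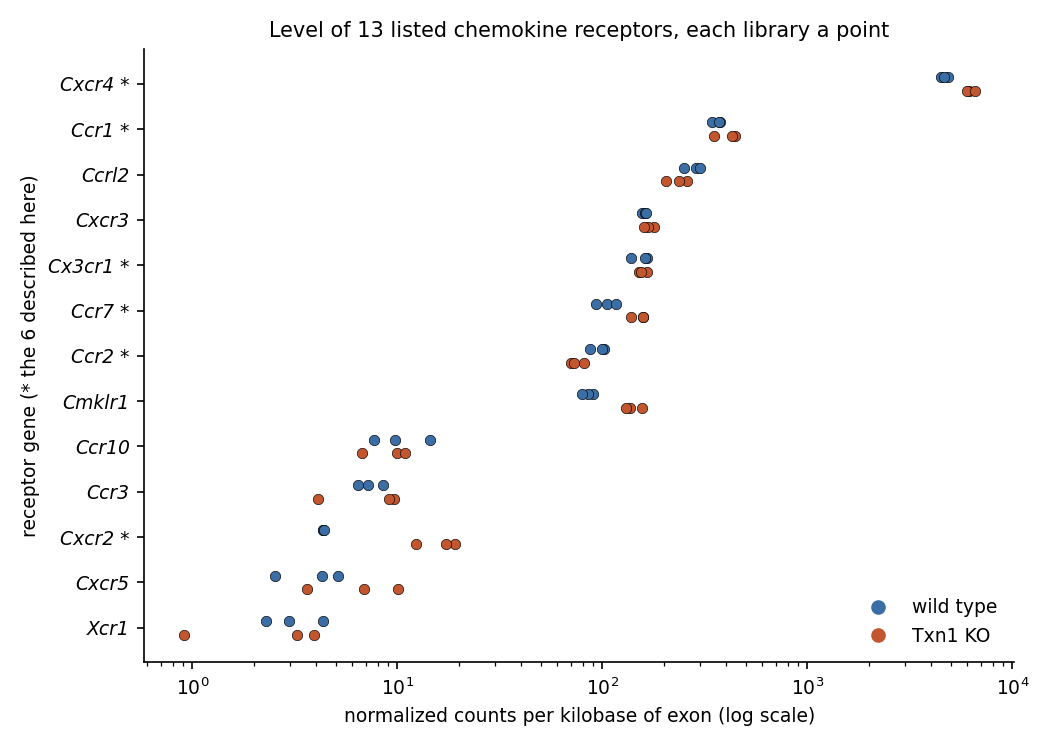
Normalized counts per kilobase of exon (x axis, log scale) of 13 listed chemokine receptor genes (y axis, ordered by the wild-type mean), with each library as a point. Among the 6 members Cxcr4 lies 12.9-fold above Ccr1 in wild type and 15.3-fold in Txn1 KO, and Cxcr2 is among the lowest.

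Of 18 other chemokine receptors considered, 7 were among the listed genes. Of these 1 rose, 1 fell and 5 did not pass, with a median log2 change of -0.03, so that 28.6% were called, near the 21.5% of all tested genes. Cmklr1, which encodes the chemerin receptor, rose from 306, 291 and 270.0 to 463, 446 and 530.2 normalized counts with no overlap (log2 0.73 ± 0.088, SE; limma adjusted p = 1.05e-05). Ccrl2, an atypical receptor that presents chemerin, fell by 0.26 on the log2 scale (limma adjusted p = 0.0370), with overlapping groups. Its call was lost in 5 of 7 fits that left libraries out, with an adjusted p of up to 0.182. Cxcr3 was measured well, at 278 ± 6.15 and 291 ± 16.3 normalized counts (SD, n = 3 each), and did not pass (log2 0.06, 95% interval -0.12 to 0.25). Ccr3 (-0.03), Ccr10 (-0.17), Cxcr5 (0.69) and Xcr1 (-0.39) had at most 33 reads in any library, and their 95% intervals all spanned 0.

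Among the ligands of the 6 receptors, 12 of 19 were in the table, of which 6 fell, 1 rose and 5 did not pass, with a median log2 change of -0.40. Over all tested genes 9.97% fell and 11.5% rose. All 6 that fell were CC chemokines. Ccl4 had 953, 884 and 906 normalized counts in wild type against 563, 513 and 459 in those labelled Txn1 KO, a log2 change of -0.84 (SE 0.073, adjusted p = 2.15e-07 by limma). Ccl5, which attracts T cells and monocytes, had 848, 819.8 and 829 against 540.2, 500.4 and 571 (log2 -0.63). Ccl9, the most abundant of these ligands, went from 13891 ± 439 to 10448 ± 531 normalized counts, Ccl6 from 2392 ± 115 to 1817 ± 52.5 and Ccl3 from 2149 ± 77.1 to 1886 ± 21.6 (log2 -0.41, -0.40 and -0.19). Each of these 5 had no overlap between groups, as did 36.2% of all tested genes.

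Of the CCR2 ligands, Ccl2 had 147, 127 and 142 normalized counts in wild type against 115, 99.5 and 56.5 in those labelled Txn1 KO. It fell by 0.67 on the log2 scale (limma adjusted p = 0.0266), but the call was lost in 5 of 7 fits that left libraries out, and the change was -0.33 (limma adjusted p = 0.252) without both libraries with liver transcripts. Ccl7 (-0.57) and Ccl8 (-0.69) were low and did not pass. Cxcl2, a ligand of CXCR2, was the one that rose, from 75.4, 79.3 and 67.9 to 236, 166 and 273 normalized counts (log2 1.56 ± 0.17, SE; limma adjusted p = 2.61e-06). The receptor and this ligand were thus both higher in every library labelled Txn1 KO. Cxcl1, Cxcl3, Cxcl5 and Ppbp, further CXCR2 ligands considered, were not among the listed genes. The CXCR4 ligand Cxcl12 (0.01, SE 0.43), a stromal product, and Mif (0.01, SE 0.064) did not pass, nor did the CX3CR1 ligand Cx3cl1 (0.58, limma adjusted p = 0.144). The CCR7 ligands Ccl19 and Ccl21a were not among the listed genes. The 9 listed stromal markers summed to 2445 to 2776 normalized counts in wild type against 1192 to 2060 in those labelled Txn1 KO. Of them 6 fell while none rose, where 9.97% of all tested genes fell and 11.5% rose. Sparc (-0.03), Pdgfrb (0.03) and Postn (-0.83) did not pass. The part of stromal RNA in the ligand results was not tested.

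**Figure D4:**
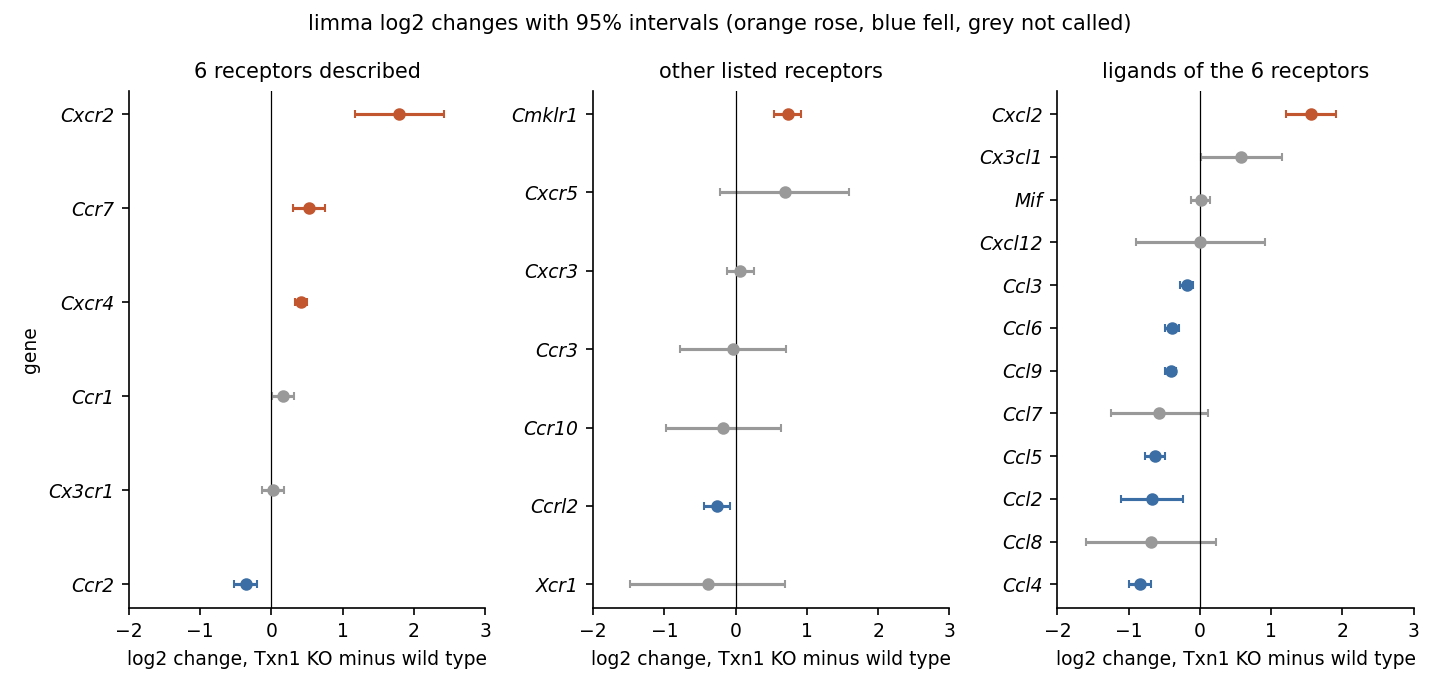
Log2 changes (x axis, Txn1 KO minus wild type, limma, 95% intervals) of the 6 receptors, 7 other listed receptors and the 12 listed ligands. Cxcr2 at 1.80 and Cxcl2 at 1.56 are the largest changes, while 6 ligands, all of the CC class, fell.

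Of 20 genes for signalling below the receptors, 4 rose and 4 fell, with a median log2 change of -0.04, where 11.5% of all tested genes rose and 9.97% fell. The called genes with the smallest p were Pik3cg, the catalytic subunit of the phosphoinositide kinase that G proteins activate (-0.35), Plcb2, a phospholipase (0.24), Pik3r6, a regulatory subunit of the same kinase (0.33), Ptk2b, a tyrosine kinase (0.14), and Rac2, a GTPase of leukocyte movement (-0.13). Pik3cg went from 1369.7 ± 99.6 to 1075 ± 43.5 and Pik3r6 from 557 ± 35.7 to 699 ± 16.4 normalized counts, so 2 subunits of one enzyme changed in opposite directions. The inhibitory G protein subunits Gnai2 (-0.06) and Gnai3 (-0.02) did not pass.

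Of 13 genes that switch receptors off, 2 rose and 4 fell, with a median log2 change of -0.08, beside the same 11.5% and 9.97% of all tested genes. Grk3, a receptor kinase that desensitizes CXCR4, had 203, 212 and 212 normalized counts in wild type against 399, 404 and 482 in those labelled Txn1 KO, without overlap (log2 1.03 ± 0.095, SE; limma adjusted p = 4.36e-07). Grk5 rose by 0.29, a call lost in 4 of 7 fits that left libraries out. The regulators of G protein signalling Rgs1 (-0.37), Rgs2 (-0.36) and Rgs18 (-0.34) fell, each without overlap. The arrestin genes Arrb1 (-0.02) and Arrb2 (0.06) did not pass. Of the 52 measured genes on these 4 lists 23 were called, where 21.5% of all tested genes were. Of those 23, 16 were also called in all 7 fits that left libraries out. The like share over all tested genes was not counted.

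The genes whose log2 levels followed each receptor most closely over the 6 libraries were found among 11132 genes with a mean of at least 50. They were Klf2 and Sh3bp5 for Cxcr4 (Pearson r = 0.999 and 0.998), Lrpap1 and Anxa4 for Cxcr2 (0.998 and 0.998), and Pik3r6 and Atg2a for Ccr7 (0.994 and 0.993). For Ccr2 they were Furin and Gmpr2 (0.996 and 0.992), for Ccr1 Galnt6 and Trappc8 (0.995 and 0.986), and for Cx3cr1 Bri3bp and Eno2 (0.985 and 0.983). An r over 0.95 was reached by 531 of the 11132 genes with Cxcr4, 469 with Cxcr2, 140 with Ccr7, 101 with Ccr2, 24 with Ccr1 and 13 with Cx3cr1. These are descriptions over libraries that share the group difference.

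The authors' deposited table gave the same 4 receptors an adjusted p under 0.05, where 19.3% of the tested genes had one. In the authors' deposited table the log2 fold changes were 1.90 for Cxcr2, 0.53 for Ccr7, 0.41 for Cxcr4, -0.36 for Ccr2, 0.17 for Ccr1 and 0.02 for Cx3cr1.

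**Figure D5:**
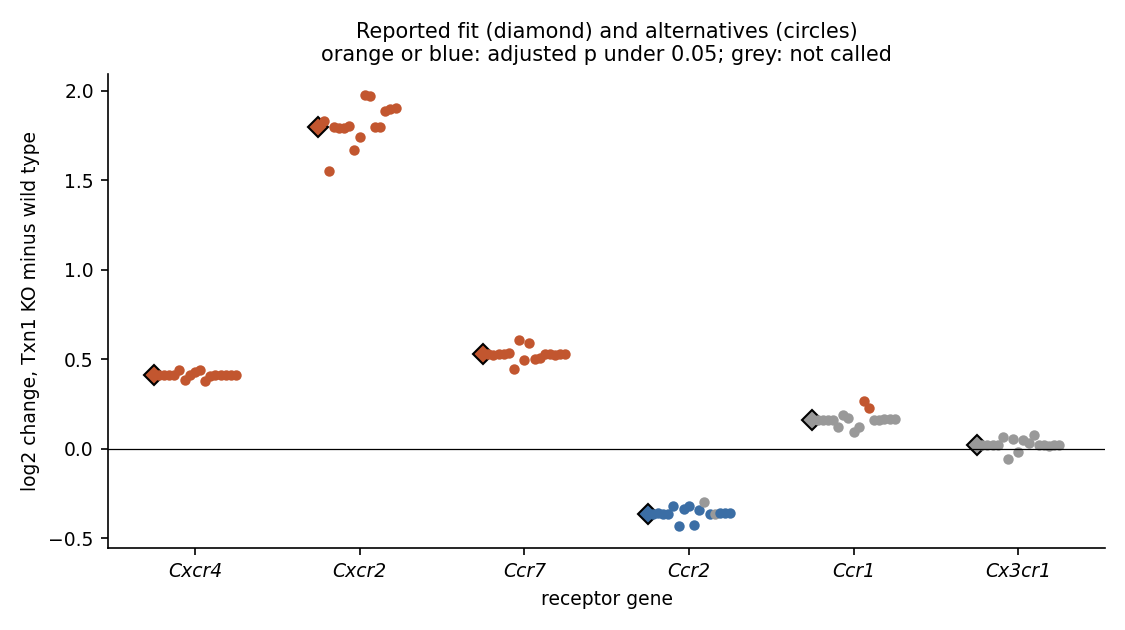
Log2 change (y axis) of each receptor (x axis) in the reported fit (diamond) and in each alternative (circles), coloured where the adjusted p was under 0.05. Cxcr4, Cxcr2 and Ccr7 stay coloured and above 0 in each fit shown, Ccr2 loses its colour in 2, and Ccr1 gains it in 2.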

How the data were processed

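PolyA-selected RNA of 6 BMDM libraries, 3 a group, was measured. The submitters' processing notes name STAR 2.5.2b, Trimmomatic 0.36, bcl2fastq 2.20, DESeq2 with no version, and the build GRCm38 (mm10). For the read counter and the strand setting, no source used here gives a name. The signal per library was deposited as the authors' read counts divided by 1 size factor per library: 100% of values are whole multiples of 1 read (tolerance 0.01). Also deposited were the authors' own p-values, adjusted p-values and log2 fold changes. Control columns, named BMDM and a number, were taken as wild type.

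The test was limma 3.58.1 (R 4.3.3, trended prior) on log2(normalized count + 1), for 13977 genes whose mean reached 10 (28 did not). The change of low genes is understated on this scale. edgeR 4.0.16 and DESeq2 1.42.0 were run on the recovered reads, of which edgeR called 2969 genes. The other alternatives were pseudocounts, filters, thresholds, the spread estimate, left-out libraries and a replicate block. Scripts were tested on simulated data. Exon lengths, transcripts and positions came from GENCODE M21 (GRCm38).

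The members, the lists and the tests were chosen with earlier results of these data known. Named were all members, the listed receptors and ligands, up to 5 called genes of the signalling and desensitization lists by smallest p, Txn1, Lyz2 and the 2 genes most like each member. Other genes (markers, chromosomal neighbours, Gnai2, Gnai3, Arrb1, Arrb2) were named after their values were seen. Some items are not reported here and stand in no list count.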

Additional observations from a re-analysis of the deposited data

How the results depend on the processing

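In every fit run, 3 to 5 of the 6 receptors were called. Cxcr4, Cxcr2 and Ccr7 kept their rise and their call in each fit that tested them, with log2 changes from 0.38 to 0.44, from 1.55 to 1.98 and from 0.45 to 0.61. The filter at a mean of 50 left Cxcr2 out. Without both libraries with liver transcripts Ccr2 lost its call (-0.30) and Ccr1 gained one (0.23), and without a trended prior Ccr2 lost its call at -0.36. Leaving out single libraries moved Ccr1 between 0.093 and 0.27, with a call without Txn1 KO library 3, and Cx3cr1 between -0.059 and 0.068. Cx3cr1 was below 0 when wild-type replicate 2 (-0.059) or, separately, Txn1 KO library 1 (-0.016) was left out. Ccr2 then ran from -0.43 to -0.32. Of 52 other measured list genes 23 were called, where 3001 of 13977 tested genes (21.5%) were. Without single libraries 16 to 21 list genes were called, and calls over all genes ran from 2088 to 2820. Without a trended prior 13 list genes were called, and calls over all genes fell from 3001 to 1525. The cause was not tested. Deviations of same-numbered libraries from their group means correlated at -0.27, 0.14 and -0.33 over 13977 genes. Those of wild-type replicate 1 and Txn1 KO library 3 correlated at 0.43. With 3 libraries a group and liver transcripts in those 2, the check cannot decide whether replicate numbers pair libraries. With the replicate block, 4 receptors, 20 list genes and 2675 of all genes were called, and the log2 change of Ccr2 was -0.36 (limma adjusted p = 0.00797). Depth limits Cxcr2, Ccr3, Ccr10, Cxcr5 and Xcr1, which had at most 55 reads in a library.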
